A study of Mus musculus with 4 samples.

Results

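The Bmp ligands and antagonists described here are 10 of the 32285 genes counted in the deposited single-cell files, found by gene symbol from a fixed list. The 6 ligands are Bmp2, Bmp3, Bmp4, Bmp5, Bmp6 and Bmp7, and the 4 antagonists and modulators are Nog, Grem1, Chrdl1 and Bmper. Each had at least 20 unique molecular identifiers (UMIs, 1 per captured RNA molecule) in every comparison of whole mesenchymal sums between libraries, while in single gates some fell under that filter.

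The study asked how glucose uptake through Glut1 (Slc2a1) and Glut3 (Slc2a3) bears on the formation of the knee joint in mouse embryos. Presumptive knee regions were cut from hindlimb cartilage, dissociated and sequenced as 4 single-cell libraries, 1 per condition. The E13.5 control and the E14.5 control are labelled WT (wild type), and the study describes its E14.5 control embryos as having no Cre. The next E14.5 library carried Prx1Cre;Glut1f/f;Glut3f/+, and the last carried Prx1Cre;Glut1f/f;Glut3f/f and is called DCKO (double conditional knockout). Prx1Cre acts in limb bud mesenchyme, no treatment was given, and the number of embryos pooled per library is not stated in the sources used here.

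Bone morphogenetic proteins are secreted ligands of the Tgfβ superfamily that bind paired type I and type II receptors and act through phosphorylated Smad1, Smad5 and Smad9 together with Smad4. Extracellular antagonists such as noggin and gremlin bind the ligands and keep them from their receptors. In the limb the pathway drives cartilage condensation and growth, and noggin is needed for joints to form.

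With 1 library per condition no difference between libraries could be tested, so cells were not treated as replicates. Each ratio below has an exact 95% interval that covers counting error only. Embryos of 1 library, litter, dissection and sequencing run cannot be told apart from age or genotype. Both E14.5 mutant libraries were compared with the same control library.

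The files hold 12769 barcodes and 100344565 UMIs for the E13.5 control, and 9707 barcodes and 84188147 UMIs for the E14.5 control. The mutant library with a Glut3 allele left holds 11690 barcodes and 97110697 UMIs, and the DCKO-labelled library 11602 barcodes and 91574038 UMIs. A cell was kept if it had from 200 to 6000 genes and no more than 10% of its UMIs from mitochondrial genes, and this left 12446, 9305, 11264 and 11305 cells. From here on, the mutant libraries are called by their labels, Glut3f/+ and DCKO, and 4 values in a row belong to the E13.5 control, the E14.5 control, the Glut3f/+-labelled library and the DCKO-labelled library, in that order. Between 24 and 37 kept barcodes were shared by any pair of libraries.

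Cells were sorted into gates by how many fixed marker genes had a UMI, and no member or pathway gene was a marker. The label gives the tissue as interzone, the layer of flattened cells that marks a future joint, but cells of several types were present. The interzone gate (Gdf5 and at least 3 of 7 markers) held 1526, 533, 607 and 252 cells, or 12.3%, 5.73%, 5.39% and 2.23% of kept cells. The chondrocyte gate (at least 5 of 8 markers) held 1413, 4231, 4242 and 5483 cells. Prehypertrophic chondrocytes, gated on Ihh, Col10a1 or Panx3 with further markers, numbered 519, 368, 478 and 758 cells. The osteogenic gate held 383, 111, 161 and 156 cells, the fibroblast gate 838, 280, 611 and 355, and the tendon gate 357, 371, 346 and 210. Cells that met both the interzone and the chondrocyte gate were kept apart (343, 309, 443 and 234 cells). Mesenchymal cells, meaning all kept cells outside the muscle, blood, vessel, nerve and skin gates, numbered 11512, 8838, 10625 and 10973. Of these, 4992, 1691, 2713 and 2781 cells met no gate, and 1141, 944, 1024 and 744 met other combinations of gates. Both groups enter the mesenchymal sums but no gate level. Cells in no gate were shallower than the chondrocyte gate (median 4959.5, 4527, 4281 and 3686 UMIs against 6848, 7740, 7624.5 and 7165). A gate counts markers with a UMI, so gate shares also depend on depth.

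Gates differed in how well their markers held them apart. By the rule of the gate, each interzone cell has a Gdf5 UMI, and Gdf5 stood at 463.2, 410.1, 389.8 and 296 CPM (UMIs of the gene summed over the gate and scaled to a common total) in the interzone gate and at 2.72 to 4.75 CPM in the chondrocyte gate. Col2a1, the main cartilage collagen and itself a marker, reached 2798, 6138, 5654 and 4963 CPM in the chondrocyte gate. The osteogenic and tendon gates were the loosest, with 2 markers needed in each, and their cells held a larger median share of the fibroblast markers (0.429 to 0.571 and 0.429) than of their own (0.286 and 0.333). Osteogenic cells also held more of the prehypertrophic markers (0.333, with Alpl in both lists). In the E14.5 control osteogenic cells held more of the chondrocyte markers as well (0.375), and tendon cells more of the interzone markers (0.429). These gates are therefore not set apart by their markers from the gates they are ranked against below, and the names are short forms. Prehypertrophic cells needed 2 of their own markers as well, with Ihh, Col10a1 or Panx3 among them, and at least 4 of the chondrocyte markers. They held a median share of 0.5 of their own markers and 0.875 to 1.0 of the chondrocyte markers. By the rule of the gate they are chondrocytes with added markers. RNA free in the suspension was gauged in erythroid cells (132, 91, 62 and 42 cells), which should lack Col2a1 and the members, and Col2a1 there was 319.8, 735, 2255 and 1565 CPM.

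The genotype labels were checked on the deleted genes. Slc2a1 in mesenchymal cells was 49.96, 67.2, 360.02 and 436 CPM, so it was higher in both Cre libraries, against the label. Slc2a3 was low throughout, at 5.22, 3.49, 4.39 and 2.56 CPM. Which part of each gene is deleted is not given in the sources used here, and a tag at the 3′ end outside that part would not show the deletion, so genotypes are given below as labels. Sex also differed: a UMI of Xist was found in 64.7%, 0.172%, 92.2% and 91.2% of kept cells, and a UMI of a Y-linked gene in 18.4%, 65.9%, 0.0355% and 0.0265%. The E14.5 control was therefore male and both mutant libraries female, so sex and genotype cannot be told apart. Within the mixed E13.5 control, 7191 cells with Xist alone were compared with 1756 cells with a Y-linked UMI alone. Of the 10 members, Bmp3 was lower in the Xist cells (log2 ratio -0.47, interval -0.83 to -0.10), Bmp4 was higher (0.23, 0.08 to 0.39), and the intervals of the other 8 members included 0. X-linked Chrdl1 was among those 8 (0.12, -0.15 to 0.39).

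Among the ligands, Bmp4 marked the interzone. This ligand, needed in early limb patterning and cartilage formation, was measured at 65.2, 93.02, 67.8 and 69.4 CPM in the interzone gate. In the chondrocyte gate it was 17.1, 12.006, 9.62 and 11.7 CPM. The interzone gate ranked first of the 7 mesenchymal gates for Bmp4 in each of the 4 libraries, and its interval was clear of the next gate except in the DCKO-labelled library, where the tendon gate (54.05 CPM) overlapped it. At least 1 Bmp4 UMI was found in 26.4%, 33.0%, 24.1% and 23.8% of interzone cells, against 2.27%, 3.3%, 3.23% and 0 of erythroid cells. Erythroid cells were the deeper of the pair (median 7527, 8811, 7761 and 7894 UMIs against 5369, 4952, 4690 and 4625). After thinning each cell to 2000 UMIs, with shallower cells left out, the interzone shares were 11.1%, 16.1%, 11.6% and 11.0%, and the erythroid shares were 0.361%, 0.478%, 0.319% and 0.

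Bmp5 had the opposite arrangement. Known from the short ear mouse, in which its loss alters cartilage and skeletal shape, it stood at 13.3, 11.7, 10.2 and 15.2 CPM in the interzone gate. The chondrocyte gate held 43.1, 53.9, 44.4 and 42.2 CPM, the highest of the 7 gates in each library. In the DCKO-labelled library the tendon gate (40.4 CPM), the cells of both gates (40.06 CPM) and the osteogenic gate (30.8 CPM) overlapped the chondrocyte interval, and in the other libraries no gate did.

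Bmp2, a ligand needed for chondrocyte maturation and bone repair, was close to level between the interzone and chondrocyte gates. Its CPM ran 24.3, 21.0, 20.1 and 24.6 in the interzone gate and 28.0, 25.5, 26.9 and 21.8 in the chondrocyte gate, with overlapping intervals in all 4 libraries. Erythroid cells gave 5.73, 5.86, 5.4 and 17.4 CPM of Bmp2. The last rests on 7 UMIs, and its interval (6.98 to 35.8 CPM) overlapped both gates of the DCKO-labelled library. Osteogenic cells (46.1, 40.9, 41.5 and 27.7 CPM) ranked first or second of the 7 gates in each library. Prehypertrophic cells (47.2, 37.4, 33.6 and 23.2 CPM) overlapped them in each library, though in the DCKO-labelled library they ranked below 4 other gates, and fibroblasts were lowest in each library (15.1, 7.33, 5.43 and 6.33 CPM). Cells of both the interzone and the chondrocyte gate held 30.4, 40.4, 34.4 and 46.2 CPM of Bmp2, above either gate alone, with an interval that overlapped both gates at E13.5 and was clear of both gates in the other libraries.

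Bmp7 was highest in prehypertrophic chondrocytes. There it reached 51.1, 29.2, 17.1 and 12.96 CPM, the first rank in each library. That interval was clear of the next gate in the controls and overlapped it in the mutant libraries. In the interzone it was 8.06, 1.0002, 3.72 and 0.723 CPM, and the last 3 of these rest on 3, 12 and 1 UMIs. Erythroid cells gave 2.86, 3.52, 1.8 and 4.96 CPM of Bmp7, so the interzone values of the E14.5 control and of the DCKO-labelled library were no higher than the erythroid ones.

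Bmp6 and Bmp3 were the scarcest ligands. Bmp6, a further ligand of maturing chondrocytes, was highest in prehypertrophic cells in 3 libraries (11.5, 8.95 and 9.23 CPM), with an interval that overlapped the osteogenic gate (5.42 and 6.15 CPM) in the mutant libraries, while in the E14.5 control they (4.98 CPM) came after cells of both the interzone and the chondrocyte gate (6.83 CPM), with overlapping intervals. Bmp3, which opposes the osteogenic ligands, was a gene of the connective tissue instead. Fibroblasts held 15.3, 21.5, 12.6 and 12.7 CPM of Bmp3 and osteogenic cells 3.79, 16.4, 18.1 and 18.5 CPM. Chondrocytes held 0.545, 0.275, 0.852 and 0.288 CPM, and prehypertrophic cells of the E13.5 control held none (0 UMIs, which allows up to 0.618 CPM).

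**Figure D1:**
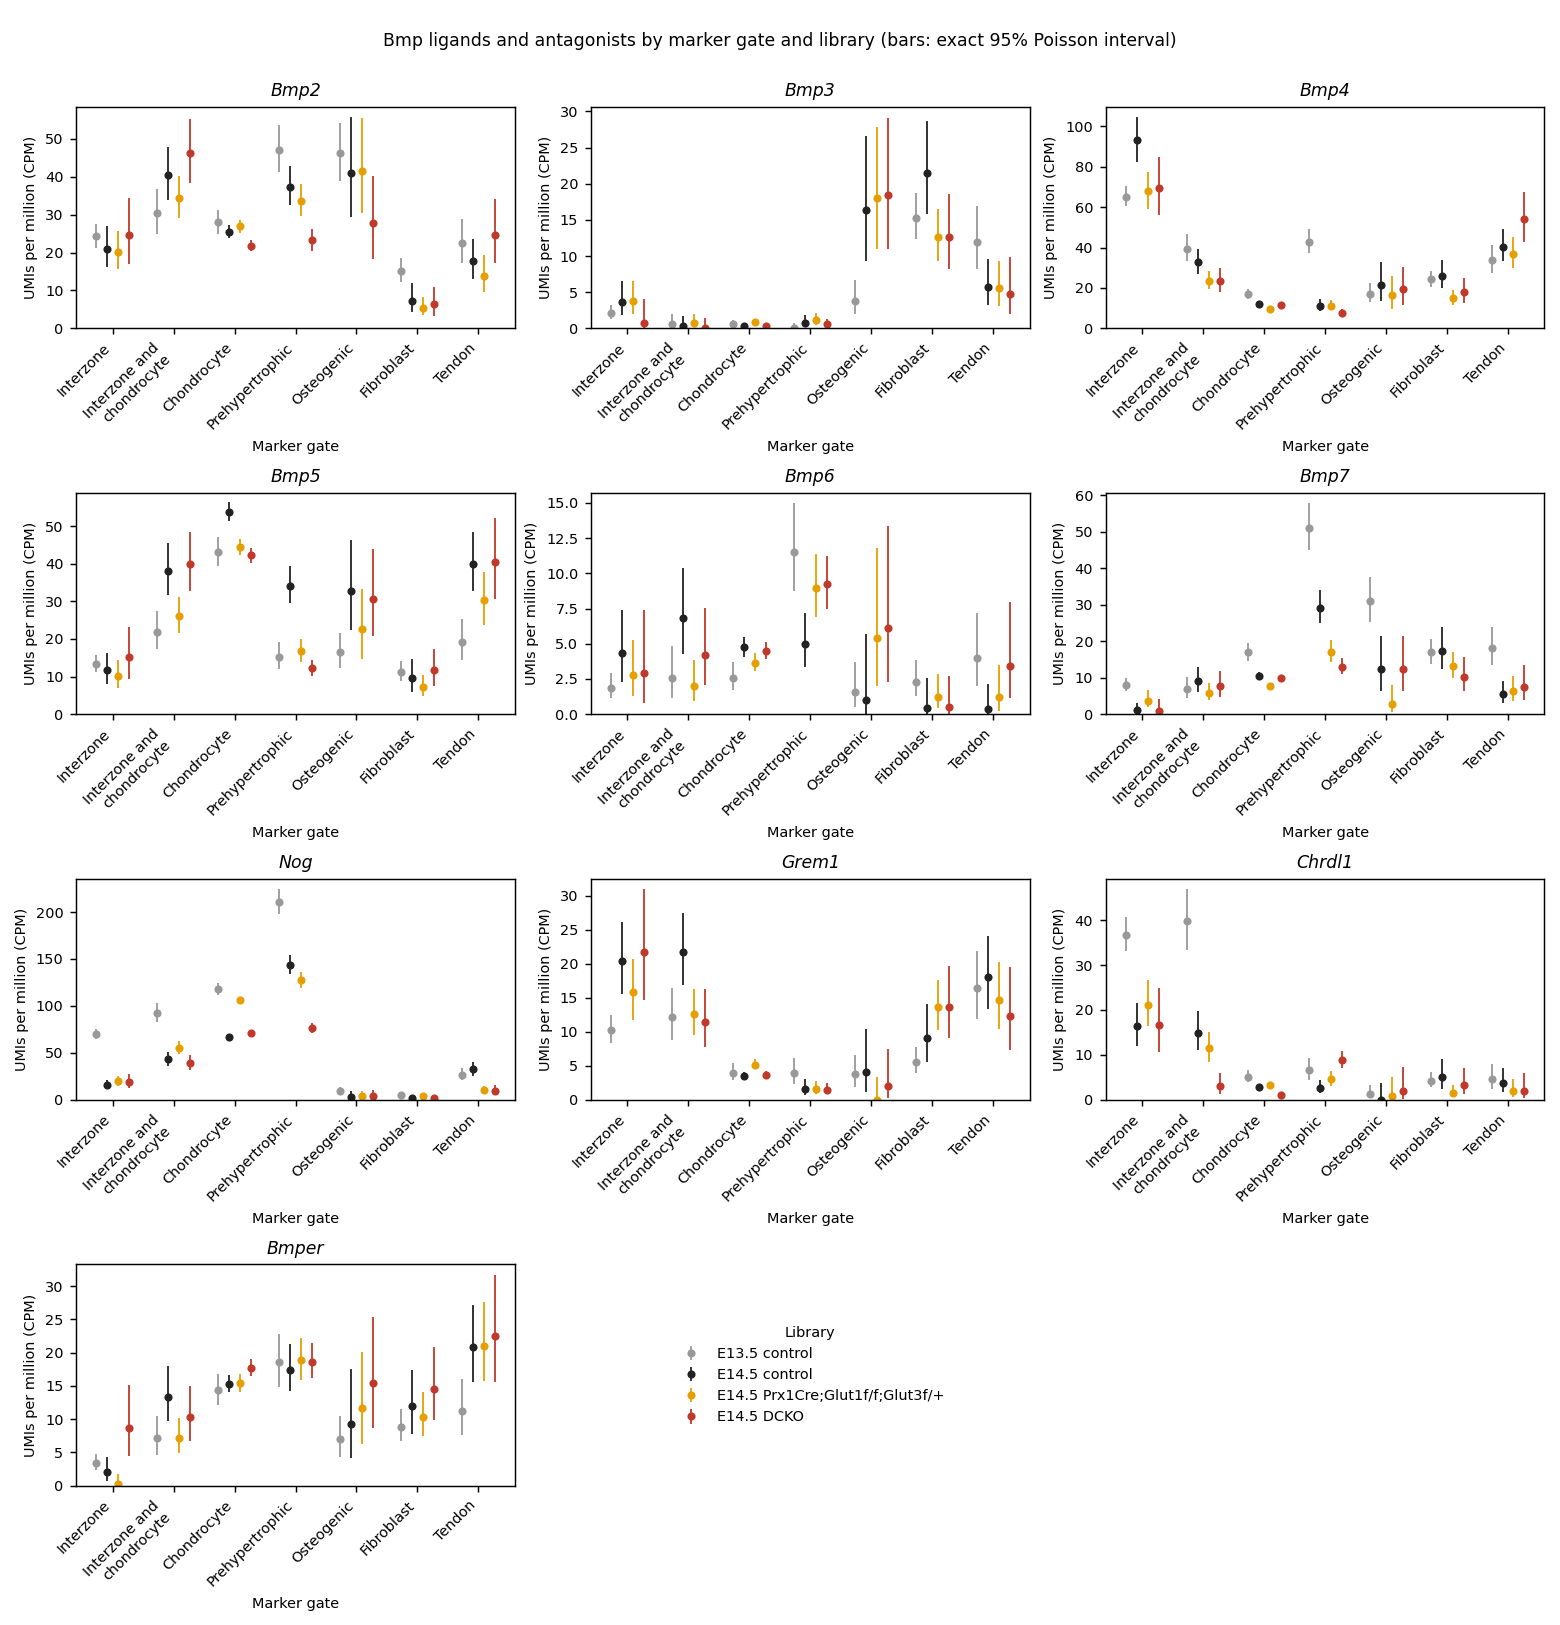
CPM of each member (vertical axis, from 0) in 7 marker gates (horizontal axis) of the 4 libraries, with exact 95% Poisson intervals. Bmp4 peaks in the interzone gate (65.2 to 93.02 CPM), Bmp5 in the chondrocyte gate (42.2 to 53.9 CPM), and Nog in the prehypertrophic gate (76.4 to 211 CPM).

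Nog was the most abundant of the 4 antagonists in mesenchymal cells, with 69.4, 59.3, 76.2 and 58.5 CPM. UMIs are counted from 3′ tags, 1 per molecule, so transcript length does not enter this order. Noggin is the classical secreted antagonist that binds Bmp2, Bmp4 and Bmp7. Its level differed by gate: 69.9, 15.7, 19.8 and 18.8 CPM in the interzone gate, 118.3, 67.3, 106 and 70.8 in the chondrocyte gate, and 211, 143, 127 and 76.4 in the prehypertrophic gate. This is an order of marker gates, and maturity was not measured. The prehypertrophic interval overlapped that of the chondrocytes in the DCKO-labelled library and lay above it in the other 3. A Nog UMI was found in 24.2%, 7.5%, 6.26% and 7.94% of interzone cells, and in 5.3%, 5.49%, 11.3% and 7.14% of erythroid cells. Thinned to 2000 UMIs per cell, the interzone shares were 12.8%, 3.14%, 2.46% and 3.88% and the erythroid shares 1.34%, 1.48%, 4.3% and 1.95%. Nog in the interzone was thus well above the erythroid share at E13.5, closer to it in the E14.5 control and the DCKO-labelled library, and below it in the Glut3f/+-labelled library. Fibroblasts held less Nog than erythroid cells did (4.94, 1.83, 3.71 and 2.43 against 10.5, 12.9, 30.6 and 32.3 CPM), so the erythroid value was not a common floor. Outside the skeleton, muscle cells also held Nog, at 80.6, 54.9, 51.0 and 54.8 CPM.

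Grem1 and Chrdl1 were the antagonists with more RNA in the interzone than in chondrocytes. Gremlin 1, which blocks Bmp2, Bmp4 and Bmp7 and is known from limb bud outgrowth, was at 10.2, 20.3, 15.8 and 21.7 CPM in the interzone gate. Its chondrocyte level was 4.00, 3.497, 5.20 and 3.62 CPM, and erythroid cells gave 0 to 3.6 CPM. Tendon cells were close to the interzone, at 16.4, 18.1, 14.7 and 12.3 CPM of Grem1, and the intervals of both gates overlapped. Cells of both the interzone and the chondrocyte gate (12.2, 21.7, 12.6 and 11.4 CPM) overlapped the interzone too, as did fibroblasts of the mutant libraries (both 13.6 CPM). At E13.5 the tendon cells and the cells of both gates ranked above the interzone, and Grem1 was thus not particular to it. Chrdl1 encodes a chordin-like protein that binds Bmp4 and related ligands. It stood at 36.7, 16.3, 21.1 and 16.6 CPM in the interzone gate and at 5.18, 2.75, 3.35 and 1.07 CPM in the chondrocyte gate. Cells of both gates overlapped the interzone for Chrdl1 in the controls (39.7 and 14.9 CPM) and lay below it in the libraries labelled Glut3f/+ (11.5 CPM) and DCKO (3.05 CPM). Prehypertrophic cells of the DCKO-labelled library (8.86 CPM) overlapped the interzone too.

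Bmper, whose product binds ligands and can either block or promote their action, was the antagonist or modulator least seen in the interzone. The chondrocyte gate held 14.4, 15.3, 15.4 and 17.8 CPM, and the interzone gate 3.38, 2.0005, 0.31 and 8.68 CPM from 34, 6, 1 and 12 UMIs. Erythroid cells gave 1.91, 2.34, 7.19 and 7.44 CPM, so the interzone values lay near the erythroid ones or below them. Tendon cells (11.3, 20.8, 21.1 and 22.6 CPM) and prehypertrophic cells (18.5, 17.4, 18.9 and 18.6 CPM) overlapped in each library and held its top ranks, with chondrocytes between them at E13.5.

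Summed over members, ligands and antagonists were in different balance from gate to gate. The 6 ligands summed to 114.9, 134.7, 108.4 and 113.5 CPM in the interzone gate, and the 4 antagonists to 120.2, 54.3, 57.0 and 65.8 CPM. The interval did not set ligand and antagonist UMIs apart in the E13.5 interzone (0.955 ligand UMIs per antagonist UMI, interval 0.881 to 1.04). Ligand UMIs exceeded antagonist UMIs in the interzone of the E14.5 libraries (2.48, 1.9 and 1.73). In prehypertrophic cells antagonist UMIs exceeded ligand UMIs in each library (0.699, 0.712, 0.582 and 0.624 ligand UMIs per antagonist UMI), with Nog making up 87.9%, 86.9%, 83.6% and 72.5% of the antagonist sum. Chondrocytes had 0.764, 1.2, 0.715 and 0.969 ligand UMIs per antagonist UMI, the last with an interval that included 1. Cells of both the interzone and the chondrocyte gate had 0.672, 1.36, 1.07 and 1.9. The first of these was below the prehypertrophic ratio, with overlapping intervals. The osteogenic gate lay at the high end, with 5.32, 7.62, 6.56 and 4.87 ligand UMIs per antagonist UMI. In these sums Bmp3, which opposes the osteogenic ligands, counts as a ligand. Bmper, which can either block or promote ligand action, counts as an antagonist. Bmper made up 56.25%, 72.2% and 65.2% of antagonist UMIs in the osteogenic gate of the E14.5 libraries. Bmp4 made up 56.8%, 69.1%, 62.6% and 61.1% of ligand UMIs in the interzone, and Bmp5 made up 39.8%, 50.4%, 47.7% and 46.7% in chondrocytes. These are sums of RNA counts, which say nothing of protein or of how strongly each antagonist binds. They leave out the other extracellular antagonists and modulators, among them Nbl1 and Fstl1, so each balance holds for the members alone.

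The interzone was then set against cartilage within each control library, which asks how the members divide between the future joint and the future bone ends. At E13.5, 4 of 10 members were higher in the interzone gate by at least 1.5-fold, against 16.3% of all 12973 genes with enough UMIs, and 4 were lower, against 7.28% of all genes. Higher were Chrdl1 (7.09-fold, log2 ratio 2.83, interval 2.42 to 3.25), Bmp3 (3.83-fold, from 21 and 6 UMIs), Bmp4 (3.82-fold, log2 1.93, interval 1.70 to 2.18) and Grem1 (2.56-fold). Bmper was 4.24-fold lower, Bmp5 3.24-fold, Bmp7 2.11-fold and Nog 1.69-fold. Bmp2 (log2 -0.21, interval -0.45 to 0.04) and Bmp6 (-0.43, -1.35 to 0.46) were within 1.5-fold.

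At E14.5 the counts were again 4 higher, against 26.8% of 13624 genes, and 4 lower, against 13.6%. Read by name they were the same 8 genes in the same directions. Bmp4 was 7.75-fold higher in the interzone (log2 2.95, interval 2.73 to 3.17), Chrdl1 5.93-fold, Grem1 5.82-fold and Bmp3 13.3-fold, the last from 11 and 10 UMIs. Nog was 4.29-fold lower, Bmp5 4.62-fold, Bmper 7.65-fold and Bmp7 10.5-fold, with 3 Bmp7 UMIs in the interzone. Scaling by TMM factors (trimmed mean of M-values, which set the bulk of genes level between the sums) moved all genes by -0.08 log2 at E13.5 and by -0.27 log2 at E14.5 and ended none of these 16 calls. With a stricter gate Bmp3 had too few UMIs to be called at either age (log2 2.73 and 2.24), and with the mean CPM of single cells Nog at E13.5 was within the fold (-0.48).

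The division depended on which cells were compared. Counting cells of both gates as interzone, a choice made after seeing the data, ended none of the 16 calls. The Gdf5 alternative changed both sides of the comparison at once, so its shifts cannot be put down to either side. When any mesenchymal cell with a Gdf5 UMI was set against those with none, Bmp4, Grem1 and Chrdl1 stayed higher at both ages. Bmp3, which was highest in fibroblasts of the controls, then turned lower in the Gdf5 cells at E13.5 (log2 -1.875) and fell within the fold at E14.5 (-0.46). Nog at E13.5 went from -0.76 to 0.14, and Bmp5 was within the fold at both ages (-0.33 and -0.57), as was Bmp7 at E14.5 (-0.21). Bmp2 (0.68) and Bmp6 (0.81) at E14.5 were newly past the fold, higher in the Gdf5 cells.

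Both mutant libraries kept this arrangement for the main members. Bmp4 in the interzone over the chondrocyte gate was 7.05-fold higher in the Glut3f/+-labelled library and 5.94-fold higher in the DCKO-labelled library. Chrdl1 was 6.28-fold and 15.6-fold higher, the second against a chondrocyte level of 1.07 CPM. Nog was 5.36-fold and 3.77-fold lower, and Bmp5 4.35-fold and 2.78-fold lower. Whether these ratios differ from the control's was not tested.

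**Figure D2:**
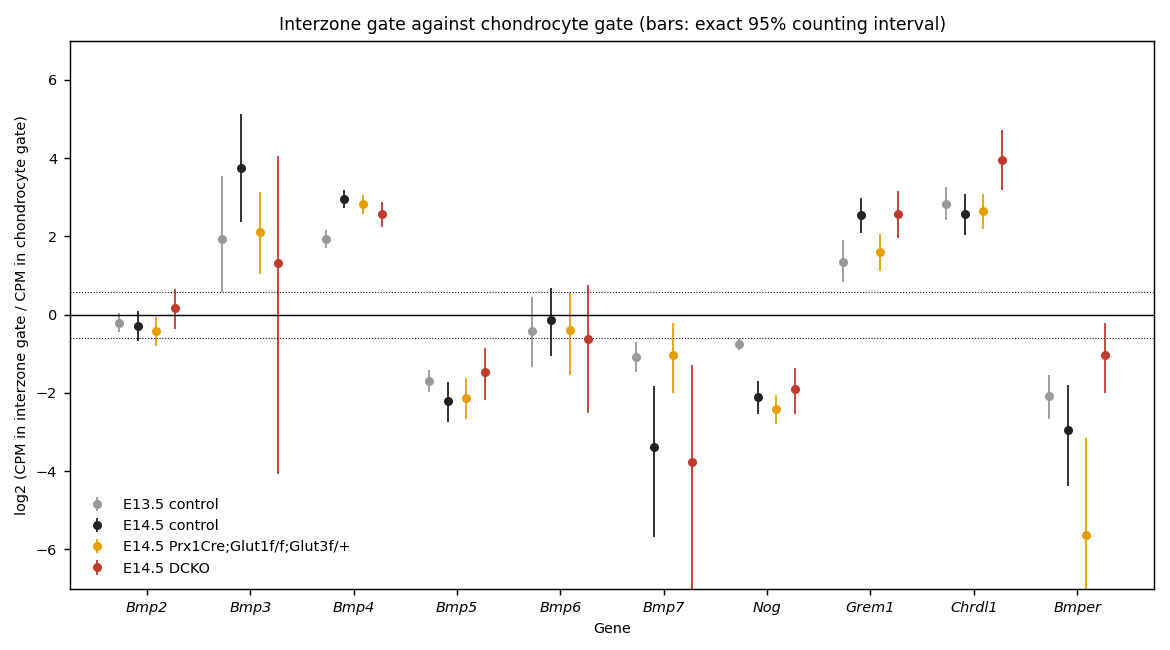
Log2 ratio of CPM in the interzone gate to CPM in the chondrocyte gate (vertical axis) for each member (horizontal axis) in the 4 libraries, with exact 95% intervals and dotted lines at 1.5-fold. The lower bars of Bmp7 (DCKO) and Bmper (Prx1Cre;Glut1f/f;Glut3f/+), which rest on 1 interzone UMI each, run past the axis. Bmp4, Grem1 and Chrdl1 lie above the upper line in each library, and Bmp5, Nog and Bmper below the lower one.

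Age was read from the E14.5 control against the E13.5 control, a step over which the chondrocyte gate went from 11.4% to 45.5% of kept cells. Cells in no gate went from 40.1% to 18.2% over the same step. In mesenchymal cells 1 of 10 members was higher by at least 1.5-fold, against 10.7% of 16611 genes, and 3 were lower, against 17.6%. Bmp5 rose from 21.1 to 41.6 CPM (log2 0.98, interval 0.89 to 1.07). Lower were Chrdl1 (11.6 to 5.19 CPM, log2 -1.16, interval -1.33 to -0.99), Bmp3 (5.09 to 2.61 CPM, log2 -0.97) and Bmp7 (19.8 to 12.1 CPM, log2 -0.71). TMM scaling moved all genes by 0.13 log2 here and left Bmp7 at -0.58, just within the fold. Given the gate shares of the E13.5 control in both libraries, a choice made after seeing the data, Bmp5 was within the fold (0.46), Bmp3 was at 0.12, and Nog passed it (-0.84 in place of -0.23).

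Of the 7 gates, the interzone held the largest age difference for Nog. It went from 69.9 to 15.7 CPM there, 4.46-fold lower (log2 -2.16, interval -2.62 to -1.73). Chrdl1 was 2.25-fold lower (36.7 to 16.3 CPM) and Bmp7 8.05-fold lower, from 81 to 3 UMIs. Grem1 instead rose from 10.2 to 20.3 CPM (log2 0.99, interval 0.51 to 1.46), and Bmp4 from 65.2 to 93.02 CPM, which was within 1.5-fold. In all, 4 of 10 members were lower in the older interzone (12.2% of 12400 genes) and 3 higher (11.8%). The others past the fold were Bmp6 (1.89 to 4.33 CPM), Bmp3 (2.09 to 3.67 CPM) and Bmper (3.38 to 2.0005 CPM), and the intervals of Bmp3 and Bmper included 0. Nog was lower also in chondrocytes (1.76-fold) and in cells of both gates (2.12-fold). In osteogenic cells (31 to 3 UMIs, 3.19-fold) and fibroblasts (30 to 4 UMIs, 2.70-fold) it was lower with intervals that included 0, and in tendon cells it went from 26.9 to 32.4 CPM, within the fold. In prehypertrophic cells 5 of 9 members were lower (16.4% of 11254 genes) and 1 higher (7.78%). Bmp4 was 3.82-fold lower, from 42.8 to 11.2 CPM, Bmp7 1.75-fold, Bmp6 2.31-fold, Chrdl1 2.47-fold and Grem1 2.44-fold, while Bmp5 rose from 15.2 to 34.2 CPM. Bmp5 rose in tendon cells as well, from 19.3 to 40.1 CPM. The age comparison was also run on the E13.5 cells with a Y-linked UMI alone, and the same 4 members passed the fold.

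The mutant libraries were compared with the E14.5 control to ask what the deletion labels go with. In the Glut3f/+-labelled library, none of the 10 members was past 1.5-fold in mesenchymal cells, higher (5.5% of 16511 genes) or lower (4.89%). Bmp3 was the closest, at 3.91 against 2.61 CPM (log2 0.58, interval 0.32 to 0.85), and it passed with TMM scaling (0.66). Nog was at 0.36 (0.31 to 0.42), Bmp4 at -0.38 (-0.48 to -0.29), Bmp5 at -0.41 (-0.49 to -0.34) and Bmp7 at -0.34 (-0.48 to -0.20). The median of the 10 log2 ratios was -0.05 and that of all genes -0.08.

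In the DCKO-labelled library, none was higher (5.05% of 16371 genes) and 2 were lower (13.6%). Chrdl1 went from 5.19 to 3.28 CPM (log2 -0.66, interval -0.89 to -0.44) and Bmp3 from 2.61 to 1.71 CPM (-0.61, -0.93 to -0.29). TMM scaling, which moved all genes by 0.17 log2, put both within the fold (-0.49 and -0.44), and so did the gate shares of the control (-0.55 and -0.47). Bmp4, at 24.7 and 16.7 CPM, was just within it (-0.57, -0.67 to -0.47), and Nog was level (-0.02, -0.08 to 0.04). The median over members was -0.29 and over all genes -0.19. Interzone cells were 5.73% of kept cells in the control and 2.23% here, and their part in these ratios was not tested beyond the gate shares.

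Against the Glut3f/+-labelled library, the DCKO-labelled library had no member higher (3.1% of 16548 genes) and 2 lower (10.7%). They were Bmp3 (log2 -1.19, interval -1.48 to -0.91) and Chrdl1 (-0.61, -0.83 to -0.38), and Chrdl1 was within the fold with TMM scaling (-0.51) and with the gate shares of the Glut3f/+-labelled library (-0.43). These 2 libraries are both female by Xist.

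**Figure D3:**
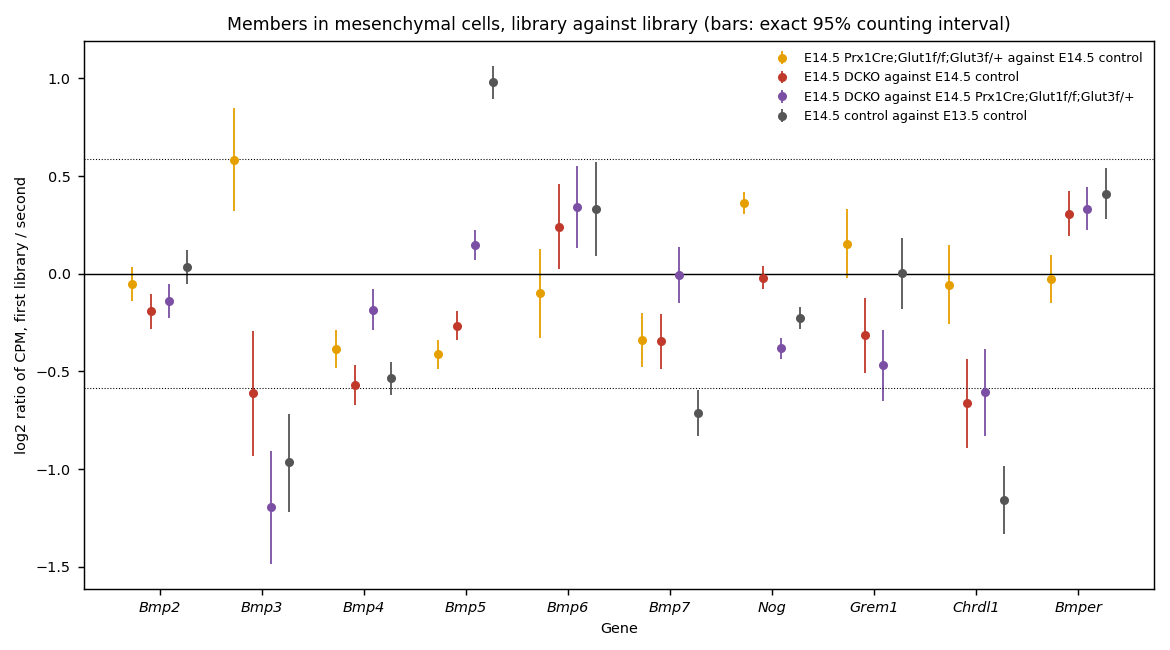
Log2 ratio of CPM in mesenchymal cells (vertical axis) for each member (horizontal axis) in 4 comparisons between libraries, with exact 95% intervals and dotted lines at 1.5-fold. The age comparison holds the widest spread, from -1.16 for Chrdl1 to 0.98 for Bmp5.

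The mesenchymal sums hid differences within gates. In prehypertrophic chondrocytes of the DCKO-labelled library 4 of 9 members with enough UMIs were lower than in the control, against 20.6% of 11662 genes, and 2 were higher, against 7.01%. Bmp5 was 2.80-fold lower (34.2 to 12.2 CPM), Bmp7 2.25-fold (29.2 to 12.96 CPM), Nog 1.88-fold (143 to 76.4 CPM) and Bmp2 1.61-fold (37.4 to 23.2 CPM). The higher members were Bmp6 (4.98 to 9.23 CPM, log2 0.89, interval 0.27 to 1.55) and Chrdl1 (2.67 to 8.86 CPM, log2 1.73, interval 0.94 to 2.62). The Glut3f/+-labelled library lay between for Bmp5 (16.8 CPM) and Bmp7 (17.1 CPM), and they were its 2 lower members (9.32% of 11397 genes). Its 2 higher members (5.98%) were Bmp6 (1.80-fold) and Chrdl1 (2.67 to 4.61 CPM, with an interval that included 0). Prehypertrophic cells were 3.95%, 4.24% and 6.70% of kept cells in these E14.5 libraries.

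In chondrocytes, Nog was 1.58-fold higher in the Glut3f/+-labelled library than in the control (106 against 67.3 CPM, log2 interval 0.59 to 0.73), and the DCKO-labelled library was level with the control (70.8 CPM). Bmp3 (10 to 31 UMIs) was the other of 2 members higher in these Glut3f/+-labelled cells, against 4.78% of 14462 genes, and none was lower. Chrdl1 in chondrocytes of the DCKO-labelled library was 2.59-fold lower, with 1 of 10 members lower there, against 12.3% of 14641 genes. In cells of both the interzone and the chondrocyte gate, 4 of 9 members were lower in the Glut3f/+-labelled library than in the control (8.62% of 11121 genes) and none higher. They were Grem1 (21.7 to 12.6 CPM), Bmper (13.4 to 7.19 CPM), Bmp6 (6.83 to 2.02 CPM) and Bmp7 (9.01 to 5.84 CPM), the last with an interval that included 0. The DCKO-labelled library had 3 of 9 lower there (14.4% of 10577 genes) and none higher. They were Chrdl1 (14.9 to 3.05 CPM, from 48 and 8 UMIs), Grem1 (21.7 to 11.4 CPM) and Bmp6 (22 and 11 UMIs, with an interval that included 0). Tendon cells held 32.4 CPM of Nog in the control and 10.3 and 9.58 CPM in the mutant libraries, 3.13-fold and 3.38-fold lower, the 1 of 8 members lower there in each (10.3% and 14.6% of all genes). In fibroblasts 2 of 7 members were lower than in the control in each mutant library (6.67% and 8.34% of all genes) and none higher. Bmp3 was 1.71-fold and 1.70-fold lower, Bmp4 in the Glut3f/+-labelled library went from 26.1 to 14.8 CPM, and Bmp7 in the DCKO-labelled library from 17.4 to 10.2 CPM, the last with an interval that included 0.

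In the interzone gate itself, no member with at least 20 UMIs in the pair passed the fold with an interval clear of 0 in any of the 3 comparisons among E14.5 libraries. For Glut3f/+ against control 8 members had enough UMIs, and 3.88% of all genes in this gate were higher and 9.89% lower. For DCKO 6 members had enough UMIs in each comparison. All genes were 5.4% higher and 15.6% lower against the control, and 7.39% and 9.08% against Glut3f/+. Bmp4 in the interzone gate was 93.02, 67.8 and 69.4 CPM, Nog 15.7, 19.8 and 18.8, Grem1 20.3, 15.8 and 21.7, and Chrdl1 16.3, 21.1 and 16.6. Bmp6 in the Glut3f/+-labelled library passed the fold (log2 -0.64) with an interval that included 0 (9 and 13 UMIs). Bmper (12, 6 and 1 UMIs in the DCKO-labelled, control and Glut3f/+-labelled libraries) and Bmp7 (1, 3 and 12 UMIs) had too few UMIs to be called, as had Bmp3 (1 UMI) and Bmp6 (4 UMIs) of the DCKO-labelled library against either other library. The DCKO-labelled library had 252 interzone cells, and differences under its counting error were not detectable at this depth.

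The rest of the pathway was read from fixed lists. Genes under 20 CPM in mesenchymal cells of each library are named below only where a count of 5 or fewer holds them, and they were chosen after their values were seen. Of 7 other ligands, at most 2 had 20 UMIs in a comparison between libraries. Bmp8a was higher in both mutant libraries (13 UMIs in the control, 35 and 39 in the mutants), and Gdf6, a joint-forming relative of Gdf5, was lower in the DCKO-labelled library (68 to 27 UMIs).

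Of the other extracellular antagonists and modulators, 15 passed the count filter at E13.5 and 9 of them were higher in the interzone than in chondrocytes (16.3% of all genes), with 1 lower (7.28%). The list's median log2 ratio was 0.63 and that of all genes 0.07. At E14.5, 9 of 13 were higher (26.8%) and 3 lower (13.6%), with a median of 0.76 against 0.18, and under TMM scaling 6 were higher at each age. Nbl1, a DAN-family antagonist, led by ratio among those named by the rule, at 7.29-fold and 7.22-fold (42.4 against 5.81 CPM and 60.7 against 8.4 CPM). Fstl1, a secreted glycoprotein that was the most abundant of the list, was 1.51-fold and 3.20-fold higher in the interzone, the first within the fold under TMM (log2 0.52). Vwc2, which encodes the ligand-binding protein brorin, was the gene lower at E13.5 (2.17-fold), and at E14.5 it (5.22-fold), Crim1 and Tll1 were lower. The next most abundant were Bmp1, the protease that cleaves chordin (69.5, 56.1, 55.2 and 48.3 CPM in mesenchymal cells), and Twsg1 (43.9, 51.0, 50.2 and 39.9 CPM).

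No counts over this list are given for the comparisons between libraries, and the genes here are those that met the naming rule. With age Vwc2 rose from 10.0 to 28.7 CPM, and Sostdc1, an antagonist that also acts on Wnt signalling, went from 32.9 to 12.6 CPM. Nbl1 was lower in the DCKO-labelled library than in the control (21.0 to 8.83 CPM, log2 -1.25, interval -1.38 to -1.12) and than in the Glut3f/+-labelled library (log2 -0.98).

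Receptors were read next. Of 11 listed receptors and co-receptors 10 were found in the files, and Hfe2 was not analysed here. Bmpr1a, the main type I receptor, was at 69.99, 59.8, 58.1 and 49.85 CPM in mesenchymal cells, the type II receptor Bmpr2 at 61.7, 56.6, 54.8 and 45.7, and the co-receptor Rgmb at 29.6, 28.1, 27.3 and 21.6. None of 10 passed the fold in the Glut3f/+-labelled library (all genes 5.5% higher and 4.89% lower). In the DCKO-labelled library 1 was lower (Eng), against the control (13.6% of all genes) and against the Glut3f/+-labelled library (10.7%), a call lost with TMM scaling. Age gave 1 higher (Eng, log2 1.60), against 10.7% of all genes. It gave 1 lower (Acvr2b, 23.5 to 14.49 CPM, within the fold under TMM), against 17.6%. At E13.5 2 were lower in the interzone than in chondrocytes (Acvrl1 and Eng), against 7.28% of all genes. At E14.5 4 were higher there, against 26.8% of all genes (Bmpr1a 1.77-fold, Rgma 1.995-fold, Acvr1 and Acvr2a), and under TMM 2 were higher (Acvr1 and Rgma) and 2 lower (Acvrl1 and Eng).

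Of the intracellular mediators, Smad4 was at 78.1, 74.8, 67.7 and 67.1 CPM, Smad5 at 48.8, 43.3, 42.9 and 37.2, and Smad1 at 34.5, 27.8, 22.7 and 18.3. Of the 6 listed, Smad1 alone passed the fold between libraries (DCKO against control, log2 -0.60, interval -0.70 to -0.51, with 13.6% of all genes lower), and TMM scaling put it at -0.43 and Smad9 past the fold with age (0.71). Smad9 was the 1 mediator lower in the interzone than in chondrocytes at both ages, against 7.28% of all genes at E13.5 and 13.6% at E14.5. These calls rested on 13 against 79 UMIs and 11 against 240 UMIs, and the second interval included 0 (log2 -1.87 to 0.02).

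The feedback and target genes were listed as responding to Bmp signalling, and most were lower in the E13.5 interzone, where Bmp4 was higher. Which signals move these genes in the cells studied here was not tested. At E13.5, 8 of 11 were lower in the interzone than in chondrocytes (7.28% of all genes) and none higher (16.3%), with a list median of -0.72 against 0.07 for all genes. Id1, an inhibitor of differentiation and a direct Smad target, was at 376 CPM in the interzone and 756 CPM in chondrocytes. Id3 was at 693 and 1056 CPM, and Id2 at 179 and 293. At E14.5, 5 were lower (13.6% of all genes), 2 higher (26.8%) and 4 within the fold, with a median of -0.52 against 0.18, and TMM scaling gave 9 lower and 2 higher. Id1 then stood at 171 CPM in the interzone and 443 CPM in chondrocytes, 2.60-fold lower. The other lower genes were Id4, Msx1, Msx2 (0 interzone UMIs) and Atoh8, and the higher genes were Smad6 and Hey1.

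Across libraries Id1 in mesenchymal cells was 510.1, 392.1, 327 and 156 CPM. In the DCKO-labelled library it was 2.51-fold lower than in the control (log2 -1.33, interval -1.36 to -1.30, and -1.15 with TMM scaling). The inhibitory Smad7 was at 151, 171, 132 and 87.3 CPM and was 1.96-fold lower in that library. In all, 5 of 11 targets were lower there (13.6% of all genes) and none higher, with a list median of -0.50 against -0.19. Id1 and Smad7 met the naming rule, and Smad6, Msx2 and Atoh8 made up the rest. With TMM scaling 3 were lower (Id1, Smad7 and Msx2). Id3 (830.2 to 586 CPM) and Id2 (201 to 156 CPM) did not pass the fold.

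Within gates, Id1 in the DCKO-labelled library was lower than in the control by 4.25-fold in prehypertrophic cells (637 to 149.9 CPM) and 2.66-fold in chondrocytes (443 to 167 CPM). It was 1.71-fold lower in the interzone and 1.64-fold lower in tendon cells. Osteogenic cells were at 141 and 116 CPM, with an interval that included 0 (log2 -0.66 to 0.08). Sex at E13.5 went with a log2 ratio of 0.12 for Id1 (Xist cells over Y cells), and its part in the mutant values was not tested.

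In the Glut3f/+-labelled library 1 of 11 targets was higher than in the control (Msx1, 11.9 to 19.6 CPM), against 5.5% of all genes. None was lower (4.89%), with a list median of -0.10 against -0.08. Against that library, the DCKO-labelled library had 4 lower (10.7% of all genes) and none higher (3.1%). They were Id1, Smad7, Msx1 and Msx2, with a list median of -0.45 against -0.10, and TMM scaling left 3 (Id1, Msx1 and Msx2). With age 2 of 11 were lower (Msx2 and Hey1), near the share of all genes (17.6%), and none with TMM scaling.

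**Figure D4:**
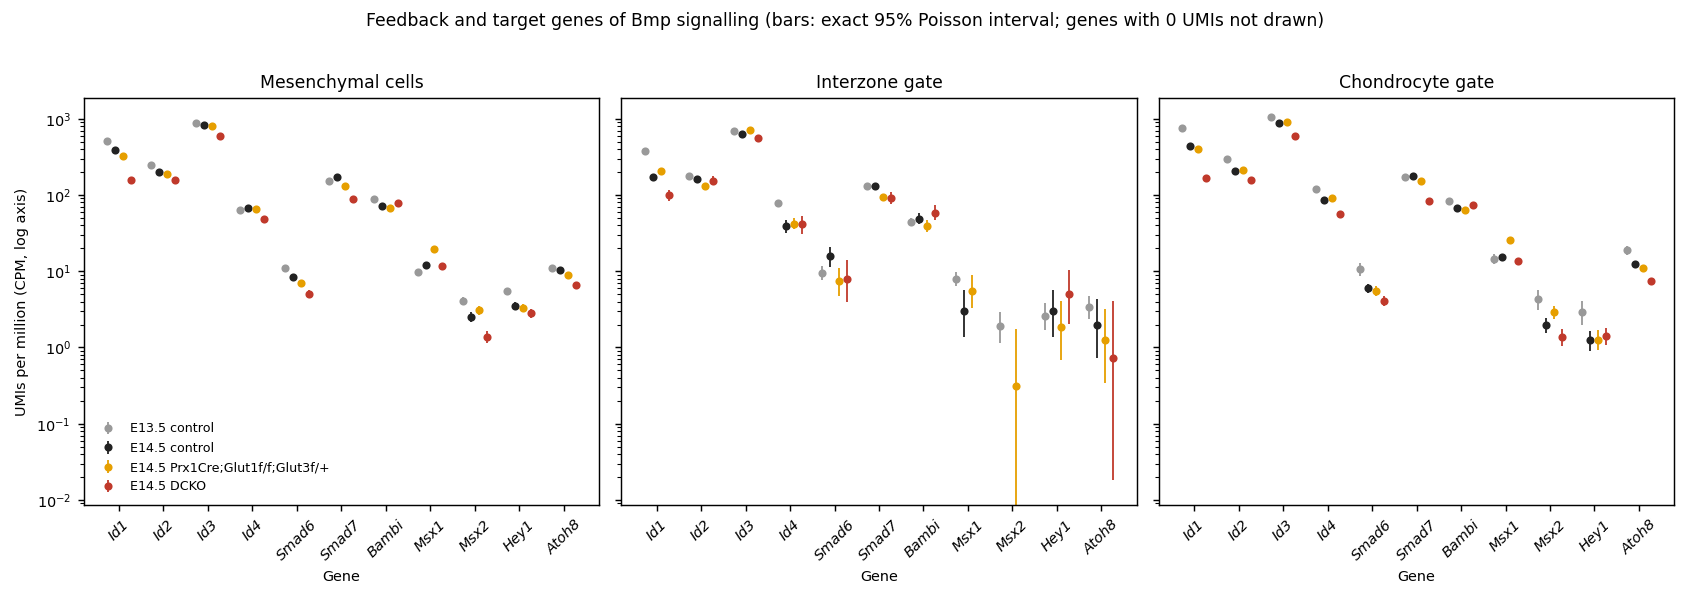
CPM on a log axis of 11 feedback and target genes (horizontal axis) in mesenchymal cells, the interzone gate and the chondrocyte gate of the 4 libraries, with exact 95% Poisson intervals. Id1 in chondrocytes falls from 756 CPM in the E13.5 control to 167 CPM in the DCKO-labelled library.

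Likeness between genes was described over 42 sums of UMIs, each of 1 gate in 1 library, by the correlation of log2 CPM across 9427 genes with gate markers left out. Beside the mesenchymal gates, the sums include muscle, endothelial, macrophage, erythroid and glial gates, so r does not describe the skeletal gates alone. The sums share libraries and depth, so no p-value belongs to them. Bmp4 was most like Cdh11, a mesenchymal cadherin (r = 0.88), then Sulf2 and Zfp503. Bmp2 was most like the receptor Fgfr2 (0.85), then Vasn and Shox2. Bmp5 was nearest to Daam2, Tbc1d8b and Scube3, Bmp3 to Tspan11, Amot and Ednra, Bmp6 to Sept5, Cpe and Fkbp9, and Bmp7 to Sobp, Islr and Necab2. Among the antagonists, Nog was nearest to Msi2 (0.83), Gal3st1 and Sytl2, and Grem1 to Ntng1 (0.86), Epha7 and Lrba. Chrdl1 was nearest to Hoxd9 (0.79), Tafa2 and Ralyl, and Bmper to Fkbp14 (0.84), Ror2 and Zfp469. Between members, the highest values were Bmp4 with Grem1 (0.78), Bmp2 with Bmp5 (0.75) and Bmp5 with Bmper (0.73), and the lowest was Bmp3 with Nog (-0.55). Bmp4 with Bmp5 stood at 0.49, though the interzone and chondrocyte gates divided them in opposite ways.

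In the GRCm38 annotation the members are scattered. Bmp2, Bmp7 and Grem1 lie on chromosome 2, Bmp5 and Bmper on chromosome 9, and the others each on a chromosome of their own, Chrdl1 on X. Bmp4 (ENSMUSG00000021835) spans chr14:46383520-46390669 on the minus strand, Bmp5 (ENSMUSG00000032179) chr9:75775364-75900310 on the plus strand, and Nog (ENSMUSG00000048616) chr11:89300638-89302332 on the minus strand. Of the 32285 gene IDs in the files, 32158 (99.6%) matched the annotation.

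Promoter windows of 250 bases upstream of the start were available from RefSeq (GRCm38.p6) for 5 of 10 members, Bmp4, Bmp5, Bmp6, Grem1 and Bmper. Those of Bmp4 and Bmp5 are printed because these ligands divide the interzone from cartilage in opposite ways. They were searched on both strands for ACGTG and for GGCGCC, short motifs linked with hypoxia-inducible factor and with Smad proteins in other genes, and matches are in capitals. The first motif is held by 16.6% and the second by 9.59% of 32851 windows of this length. The Bmp4 window (chr14:46390670-46390919, minus strand) holds ACGTG on both strands in 1 palindrome and no GGCGCC, at 63.2% GC. The Bmp5 window (chr9:75775115-75775364, plus strand) holds neither, at 42.8% GC, against a median of 52.4% over all windows. Among the windows not printed, that of Bmp6 also holds ACGTG on both strands in 1 palindrome. The Grem1 window holds 1 GGCGCC, and the Bmper window holds neither motif. A match is a string of letters and not a site of binding.
Bmp4: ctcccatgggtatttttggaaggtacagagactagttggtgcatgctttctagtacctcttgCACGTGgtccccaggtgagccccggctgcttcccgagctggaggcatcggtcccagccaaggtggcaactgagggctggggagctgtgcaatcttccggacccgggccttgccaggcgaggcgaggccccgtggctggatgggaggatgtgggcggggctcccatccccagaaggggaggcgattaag
Bmp5: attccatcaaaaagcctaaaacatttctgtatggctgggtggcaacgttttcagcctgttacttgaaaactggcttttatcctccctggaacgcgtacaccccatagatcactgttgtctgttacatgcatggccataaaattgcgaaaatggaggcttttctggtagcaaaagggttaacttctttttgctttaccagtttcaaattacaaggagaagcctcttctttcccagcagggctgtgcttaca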

How the data were processed

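The counts used are the deposited UMIs per gene and cell, which the authors made from 10x 3′ v3.1 libraries with Cell Ranger (6.1.2 per the file headers) on mm10, and which were not normalized. The submitters' notes also name Seurat 3, whose output was not used. No cells were clustered here. Each barcode kept had from 200 to 6000 genes and at most 10% mitochondrial UMIs, and doublets were kept. Gates needed a set number of distinct markers per cell, and those numbers were set after marker values had been seen. A mesenchymal cell reached fewer than 3 markers of each muscle, blood, vessel, nerve and skin class (erythroid cells also needed 5% hemoglobin UMIs). UMIs were summed per gate and library and scaled to CPM. Ratios have exact conditional intervals, levels exact Poisson intervals, and shares Clopper-Pearson intervals. A gene was past the fold at 1.5-fold either way with at least 20 UMIs in the pair. A count of 0 was limited by 3 counts. The alternatives were TMM factors, stricter cell and gate filters, other UMI minima, candidate doublets left out, mean CPM of single cells, Gdf5 cells in place of the gates, Y-linked cells at E13.5, and thinning. The members and lists were chosen with earlier results of these data known. A listed pathway gene was named where it had at least 20 CPM in mesenchymal cells of any library and passed the fold in the comparison, or was among the 3 highest of its list. An item of the list of other antagonists, and counts that include it, are not reported here. Likeness used Pearson correlation of log2(CPM + 1) over sums of at least 50 cells. The code was tested on simulated data. Tools were Python 3.11.15, numpy 2.4.6, scipy 1.17.1, pandas 2.3.3, matplotlib 3.10.9, R 4.3.3 and edgeR 4.0.16 (TMM factors).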

Additional observations from a re-analysis of the deposited data

Results flagged for a closer look

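In 8 cases a member was higher past 1.5-fold in 1 gate and lower past 1.5-fold in another gate of the same comparison, each with an interval clear of 0. In none of them was the difference tested. Between the Glut3f/+-labelled library and the E14.5 control, Bmp3 was at log2 1.63 in chondrocytes and -0.77 in fibroblasts, 2.40 apart. Bmp6 was at 0.84 in prehypertrophic cells and -1.76 in cells of both the interzone and the chondrocyte gate, 2.60 apart. Nog was at 0.66 in chondrocytes and -1.65 in tendon cells, 2.30 apart. Between the E14.5 and the E13.5 control, Bmp3 was at 2.11 in osteogenic cells and -1.05 in tendon cells, 3.17 apart. Bmp6 was at 1.42 in cells of both gates and -1.21 in prehypertrophic cells, 2.63 apart. Grem1 was at 0.99 in the interzone and -1.29 in prehypertrophic cells, 2.28 apart. Between the DCKO-labelled library and the E14.5 control, Chrdl1 was at 1.73 in prehypertrophic cells and -2.29 in cells of both gates, 4.02 apart. Against the Glut3f/+-labelled library it was at 0.94 and -1.91 in the same gates, 2.85 apart. The difference was not tested.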

How the results depend on the processing

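The 24 ratios past the fold, of 60, were recomputed under the alternatives. They gave 164 values, of which 160 kept their direction and 144 were past the fold either way, 1 of these (Bmp3 with Gdf5 cells at E13.5) in the opposite direction. The number of members past the fold between the Glut3f/+-labelled library and the control was 0 and became 1 (Bmp3) under 5 alternatives: TMM factors (1, log2 0.66), 1000 to 6000 genes with at most 5% mitochondrial UMIs (1, 0.62), cells of 2 lineages or the top 5% of genes left out (1, 0.66), a stricter gate (1, 0.66) and mean CPM (1, 0.64). For the DCKO-labelled library against the control, 2 became 0 with TMM factors, 1 with the 1000-gene filter (Bmp3 at -0.58), 1 with the stricter gate (Bmp3 at -0.52) and 0 with the gate shares of the control. With mean CPM Bmp3 was at -0.34 and Bmp4 at -0.59, so the count stayed at 2 with Bmp4 in place of Bmp3. For DCKO against Glut3f/+, 2 became 1 with TMM factors and 1 with shared gate shares. In 4 cases the direction turned, and the cause was not tested: Bmp3 with age was at 0.12 with the gate shares of the E13.5 control. With Gdf5 cells against cells with none, Bmp3 was at -1.875 (E13.5) or -0.46 (E14.5), and Nog at E13.5 was at 0.14. Bmp2 (0.68) and Bmp6 (0.81) at E14.5 then newly passed the fold. 2 alternatives were chosen after seeing the data: shared gate shares, and cells of both gates counted as interzone, which ended no call. Of gate levels, 30 lay outside their interval with TMM factors, 31 with the stricter gate, 19 with mean CPM, 5 with candidate doublets left out and 1 with the stricter cell filter. The stricter gate left under 50 cells in the osteogenic and tendon gates of all libraries and gave no value there. No paired analysis was possible because there was 1 library per condition. Limits: age, genotype, sex, litter and run are single libraries and cannot be told apart, and the genotype labels could not be checked on Slc2a1. Gates rest on a few markers, free RNA differed between libraries, and RNA does not measure protein or signalling.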
